A study of Mus musculus with 20 samples.

Results

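Genes that act from late G2 phase to the end of cell division were followed in regulatory T cells (Tregs), a class of CD4 T cells that holds immune responses in check, sorted as CD4+CD25+ cells from C57BL/6 mice. The group was chosen by gene symbol, as genes of mitotic entry, the spindle, the kinetochore, anaphase and cytokinesis, and holds 45 genes. Of these, 44 were measured among 19505 genes with a named probe set, each through its probe set of highest mean signal. Ccnb1 was not analysed here.

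Each of 20 samples was hybridised to its own Clariom S array, after enrichment with CD4 beads and the sort. In the Rheb experiment, Tregs lacking the small GTPases Rheb1 and Rheb2 (Rheb1/2 KO, called Rheb KO) and wild-type (WT) Tregs were each assayed stimulated and unstimulated, with 3 arrays per group. In the Rag experiment, Tregs lacking RagA and RagB (RagAB KO, called Rag KO) and WT Tregs were each assayed after 8 h of stimulation and unstimulated, with 2 arrays per group. Rheb and the Rag proteins relay growth factor and amino acid signals to the kinase complex mTORC1, and the comparisons ask how each deletion alters expression in either state. The sources used here do not give the stimulus, its duration in the Rheb experiment, the Cre or promoter behind each deletion or the ages of the mice. Values are log2 signals, on which 1 unit is a 2-fold difference in signal. A gene was called when its adjusted p was below 0.05 in a limma fit across all genes of an experiment, adjusted by the Benjamini-Hochberg method. Nothing in the labels ties the arrays of a group to separate animals, and p-values therefore cover the spread between these samples alone, which may be technical.

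Mitosis genes are switched on together late in the cell cycle, chiefly by the MuvB complex with B-Myb and FoxM1, which acts at a promoter element called the CHR (cell cycle genes homology region), and by NF-Y at CCAAT boxes. Cdk1 with its cyclins drives entry into mitosis, kinetochores and motor proteins align the chromosomes, and the anaphase-promoting complex then releases them for separation and cytokinesis. In T cells these genes mark cells that are dividing or preparing to divide, and Tregs are known to hold a dividing fraction in the resting animal.

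The promoters below belong to 6 members called in a knockout comparison and were picked by the number of such calls. Marked in them are matches to the elements through which this group is known to be switched on together. Not every window holds both elements. Each is the coding strand from 250 bases before to 50 bases after the annotated start, from RefSeq on GRCm38.p6. Capitals mark the CHR (TTTGAA or TTCGAA, or TTTGAA on the other strand as TTCAAA) and the CCAAT box (CCAAT, or ATTGG on the other strand). Cdk1 was called in 2 knockout comparisons and the others in 1 each, ties being taken in the order of the gene list, so that Cdca3, also called in 1 and holding 1 CHR and 3 CCAAT matches, is not printed. For Aurkb, also called in 1, no promoter was matched.
Cdk1, chr10:69352863-69353162, minus strand: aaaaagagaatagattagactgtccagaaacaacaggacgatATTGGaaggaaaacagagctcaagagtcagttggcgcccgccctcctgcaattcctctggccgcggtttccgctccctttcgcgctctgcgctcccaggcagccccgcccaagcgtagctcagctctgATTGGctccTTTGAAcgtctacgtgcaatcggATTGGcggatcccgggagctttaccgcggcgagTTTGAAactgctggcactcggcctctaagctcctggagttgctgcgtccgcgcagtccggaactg
Plk1, chr7:122159185-122159484, plus strand: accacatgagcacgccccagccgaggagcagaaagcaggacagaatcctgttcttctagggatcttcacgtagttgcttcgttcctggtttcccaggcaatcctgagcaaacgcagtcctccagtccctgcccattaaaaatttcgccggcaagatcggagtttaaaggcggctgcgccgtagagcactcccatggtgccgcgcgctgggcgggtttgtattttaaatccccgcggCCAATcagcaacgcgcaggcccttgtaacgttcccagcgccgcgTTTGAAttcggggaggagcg
Cenpe, chr3:135212313-135212612, plus strand: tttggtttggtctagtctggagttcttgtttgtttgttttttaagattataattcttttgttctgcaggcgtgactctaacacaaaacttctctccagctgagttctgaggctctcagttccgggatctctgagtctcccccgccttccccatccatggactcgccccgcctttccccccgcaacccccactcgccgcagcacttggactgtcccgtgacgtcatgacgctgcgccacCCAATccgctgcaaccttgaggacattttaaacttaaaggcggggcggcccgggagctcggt
Kif15, chr9:122950831-122951130, plus strand: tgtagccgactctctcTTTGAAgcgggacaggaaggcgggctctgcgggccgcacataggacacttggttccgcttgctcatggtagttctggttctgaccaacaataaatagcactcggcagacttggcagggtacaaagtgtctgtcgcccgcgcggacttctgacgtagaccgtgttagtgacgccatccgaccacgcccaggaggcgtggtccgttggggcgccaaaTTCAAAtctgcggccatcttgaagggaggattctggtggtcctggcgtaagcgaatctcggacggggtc
Ube2c, chr2:164769679-164769978, plus strand: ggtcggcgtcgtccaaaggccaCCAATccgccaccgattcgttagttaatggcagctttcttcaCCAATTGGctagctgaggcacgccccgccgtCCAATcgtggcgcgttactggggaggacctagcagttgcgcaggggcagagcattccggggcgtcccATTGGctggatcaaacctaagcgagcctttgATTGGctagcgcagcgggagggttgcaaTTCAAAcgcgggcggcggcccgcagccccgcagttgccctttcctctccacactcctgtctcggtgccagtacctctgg
Nek2, chr1:191821223-191821522, plus strand: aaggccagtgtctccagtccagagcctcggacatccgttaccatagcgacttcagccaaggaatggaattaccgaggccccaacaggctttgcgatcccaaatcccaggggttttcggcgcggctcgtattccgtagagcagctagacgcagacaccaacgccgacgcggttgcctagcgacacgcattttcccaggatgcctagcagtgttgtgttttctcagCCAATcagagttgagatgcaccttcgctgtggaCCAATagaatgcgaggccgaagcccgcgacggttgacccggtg

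The Cdk1 window held 2 CHR matches, which began 71 and 15 bases before the start, with 3 CCAAT boxes around them. Ube2c had 1 CHR and 6 CCAAT matches, of which 2 overlap in a single run of letters. Plk1 had 1 of each, its CHR beginning 31 bases after the annotated start. Kif15 had 2 CHR matches and no CCAAT, while Cenpe and Nek2 had CCAAT boxes and no CHR with these letters. Promoters were matched for 38 of the 45 members by symbol. A CHR was found in 30 of the 38 (78.9%) and in 19.4% of 27025 promoters of the same length, 1 per gene. A CCAAT box was found in 29 (76.3%), against 37.9% of all promoters, and both elements in 26 (68.4%), against 7.7%. These are matches of letters and not tests of binding.

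Array quality bears on how these genes can be read. The all-gene median ran from 7.67 to 7.77 on the Rheb arrays and from 7.18 to 7.55 on the Rag arrays. Among the Rag arrays, unstimulated Rag KO array 1 and unstimulated WT array 2 had the lowest 99th percentiles (11.34 and 11.46, against 11.86 to 12.15 on the other 18 arrays). The 44 members sat low: 23 to 35 of them per array exceeded the median of that array's negative controls, and at most 2 exceeded the 95th percentile. No detection call comes with the values. For 6 Rheb-experiment arrays, those of stimulated WT and unstimulated Rheb KO, the treatment label contradicts both title and source name, and the titles were followed. Of the targeted genes, Rheb was lower in Rheb KO, by -0.93 ± 0.17 (SE, adjusted p = 0.0278) stimulated and -0.88 ± 0.17 (adjusted p = 0.0413) unstimulated. Rraga was lower in Rag KO by -2.18 ± 0.25 (adjusted p = 0.00448) stimulated and -2.43 ± 0.25 (adjusted p = 0.00266) unstimulated. Neither Rhebl1, which encodes Rheb2, nor Rragb passed the test. On the Rheb arrays, Rhebl1 signals of 4.99 to 6.10 lay below all negative-control medians (6.86 to 7.16), so its loss could hardly be seen there. All 5 measured T cell genes and 6 of 12 Treg genes, among them Ctla4 and Ikzf2, lay on all 20 arrays above that percentile of the negative controls. Il2ra, which encodes the CD25 used for the sort, exceeded it on none and had signals between 6.65 and 9.17.

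In stimulated Tregs, loss of Rheb1/2 went with lower signal of a group of mitotic regulators. Cdk1, Plk1, Nek2, Cdca3, Ube2c, Cenpe and Aurkb were called lower, with differences between -0.58 and -1.15, and none of the 44 members was called higher. In unstimulated Tregs, Cdk1 and Kif15 were called lower. The 7 of 44 called lower after stimulation stand beside 0.338% of all 19505 genes called lower in that comparison (0.205% were called higher). The 2 of 44 called lower without stimulation stand beside 0.282% of all genes (0.226% called higher). In such bulk samples, fewer dividing cells and less of these RNAs per cell cannot be told apart.

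Most of the uncalled members also lay below 0. After stimulation 40 of 44 had a negative difference, with a median of -0.42 against -0.01 over all genes. Arrays of the genotypes did not overlap for 20 members that were lower, beside 8.8% of all genes. They also did not overlap for 1 that was higher, Melk, beside 1317 of all 19505 genes. At an unadjusted p under 0.05, 22 members were lower, beside 5.47% of all genes. Without stimulation 35 of 44 were below 0, with a median of -0.28 against 0.02 over all genes. There, 14 members were lower with no overlap, beside 7.08% of all genes, and 14 were lower at an unadjusted p under 0.05, beside 5.09%. Lower in both states at that unadjusted p were 11 members (25%, against 1.43% of all genes): Cdk1, Ccnb2, Nek2, Cdca3, Ube2c, Cenpe, Birc5, Kif15, Tpx2, Top2a and Mki67. The stimulated and unstimulated comparisons share no arrays, although the spread was estimated over all 12. The plot of knockout differences by role shows the pattern.

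**Figure D1:**
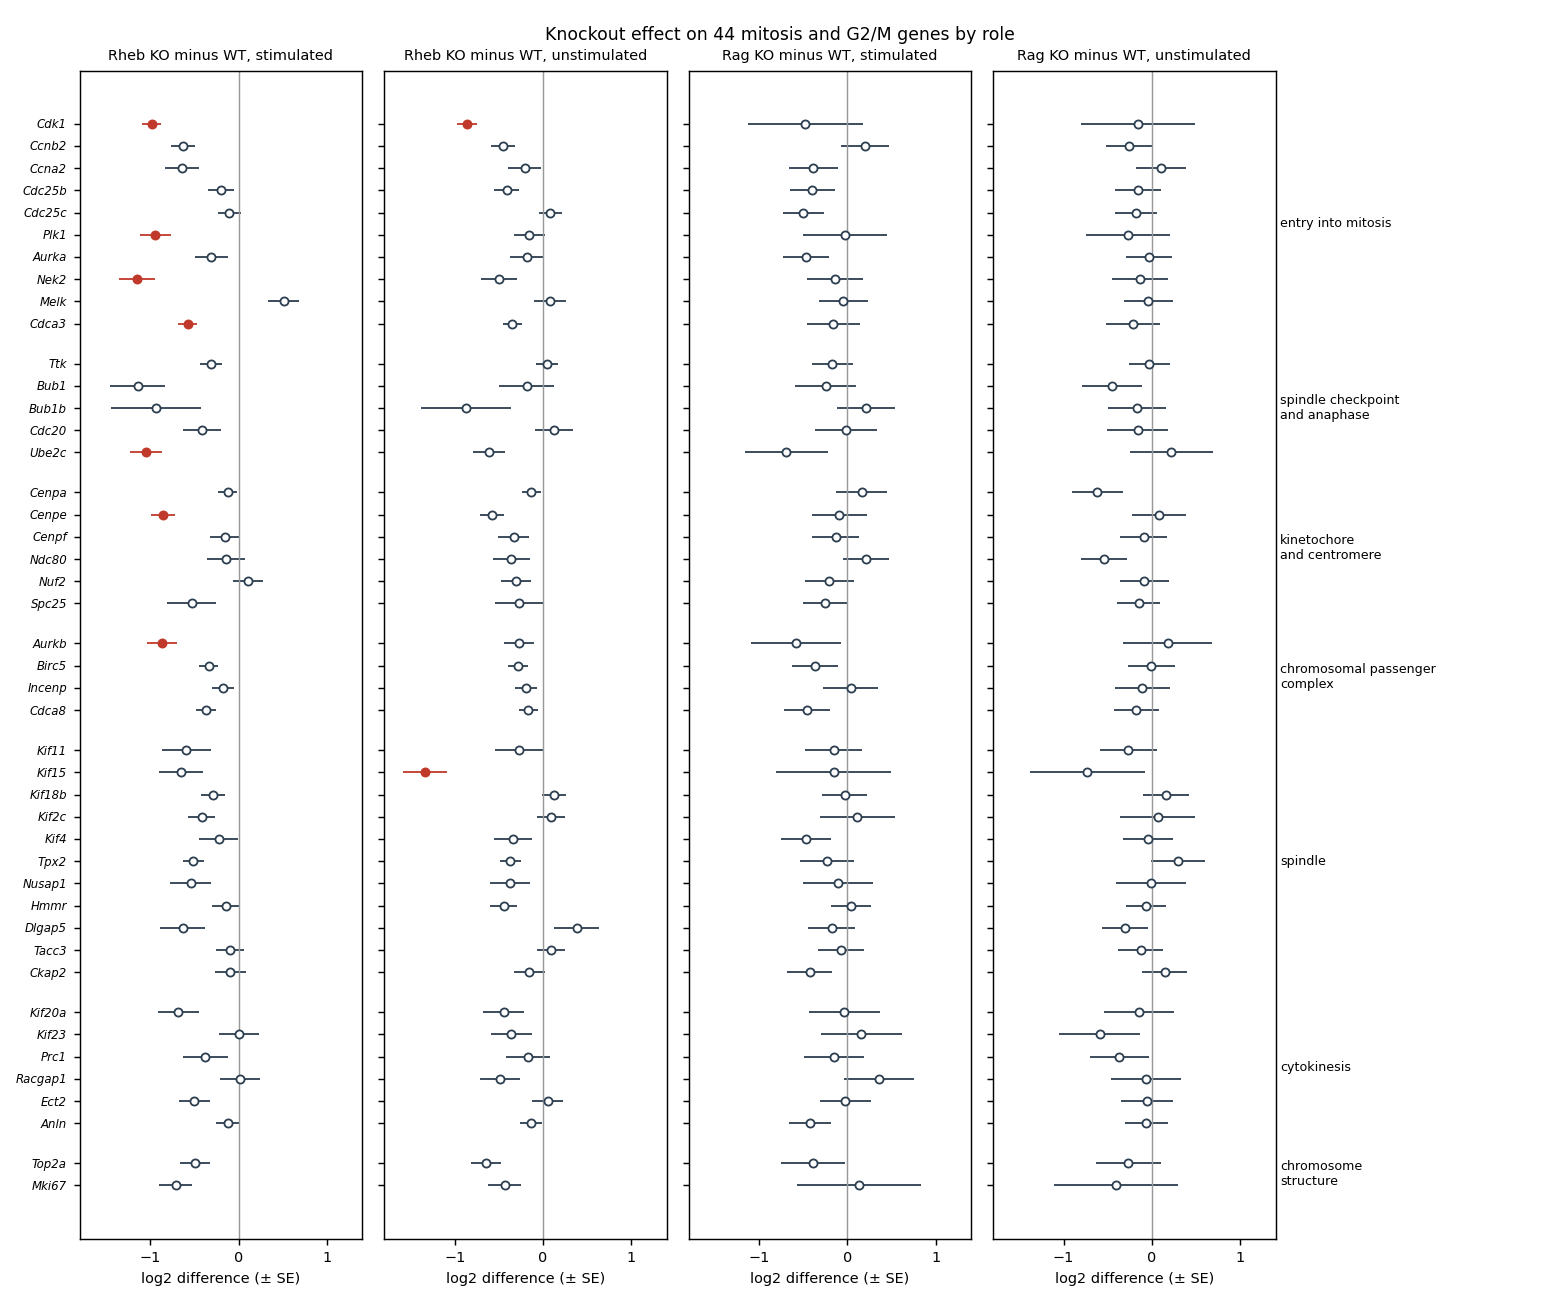
Knockout minus WT difference (log2) of the 44 measured members, sorted by role, in the 4 knockout comparisons, with bars of 1 SE and filled red points for adjusted p below 0.05. In the Rheb panels 7 members after stimulation and 2 without it are called, all to the left of 0, and the Rag panels hold no called member and have wider bars.

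Entry into mitosis held 4 of the 7 calls after stimulation and 1 of the 2 without it, among 10 measured members. Cdk1, the kinase that drives entry, had signals of 7.81, 7.74 and 7.81 in stimulated Rheb KO Tregs, against 8.94, 8.70 and 8.67 in stimulated WT Tregs. Unstimulated, it had 7.14, 6.79 and 6.90 in Rheb KO, against 7.72, 7.87 and 7.82 in WT. The groups did not overlap in either state, and stimulated Rheb KO arrays were at the level of unstimulated WT arrays. The difference was -0.98 ± 0.11 stimulated (SE, n = 3 each, adjusted p = 0.00191, 1.98-fold lower) and -0.86 ± 0.11 unstimulated (adjusted p = 0.00536). Of the unstimulated Rheb KO arrays, 2 had Cdk1 below their negative-control medians (6.97 and 7.03) and 1 slightly above (6.86), so no fold is given for that state. Both calls remained on leaving out any 1 of the 12 arrays, with adjusted p up to 0.0167 and 0.0303.

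Plk1, a kinase of centrosome maturation and mitotic entry, had 7.96, 7.89 and 7.72 in stimulated Rheb KO Tregs, against 8.71, 9.02 and 8.67 in stimulated WT Tregs. Unstimulated it had 7.66, 7.76 and 8.08 in Rheb KO, against 7.98, 7.61 and 8.37 in WT. The stimulated groups lay apart and the unstimulated groups overlapped. It was lower by -0.94 ± 0.18 after stimulation (adjusted p = 0.0343), and its unstimulated difference was -0.15 ± 0.18.

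Nek2, a kinase that separates the centrosomes, had 5.98, 6.06 and 5.55 in stimulated Rheb KO Tregs, against 7.10, 7.14 and 6.80 in stimulated WT Tregs. Its fall of -1.15 ± 0.20 (adjusted p = 0.0222) was the largest difference among members in that comparison. Its signal exceeded the negative-control median on only 3 of 20 arrays. Cdca3, which promotes mitotic entry by targeting the inhibitory kinase Wee1 for degradation, had 8.02, 7.92 and 7.97 in stimulated Rheb KO, against 8.62, 8.44 and 8.57 in stimulated WT. The 3 Rheb KO arrays lay close together, all below the WT arrays, and the difference was -0.58 ± 0.11 (adjusted p = 0.0336).

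Among the other entry genes, cyclin genes lay lower in stimulated Rheb KO without passing the test. Ccnb2 had a difference of -0.63 and Ccna2 of -0.64 ± 0.19 (adjusted p = 0.235), each with no overlap between the groups. Ccna2 had 8.51, 8.88 and 9.04 in stimulated Rheb KO, against 9.55, 9.21 and 9.58 in stimulated WT. Melk, a kinase that peaks in mitosis, ran the other way, with 5.67, 5.70 and 5.69 in stimulated Rheb KO and 5.03, 4.91 and 5.60 in stimulated WT. Its difference of 0.51 ± 0.18 did not pass the test (adjusted p = 0.343), and it exceeded the negative-control median on none of the 20 arrays. Over the 10 entry genes the median difference was -0.60 stimulated and -0.28 unstimulated.

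**Figure D2:**
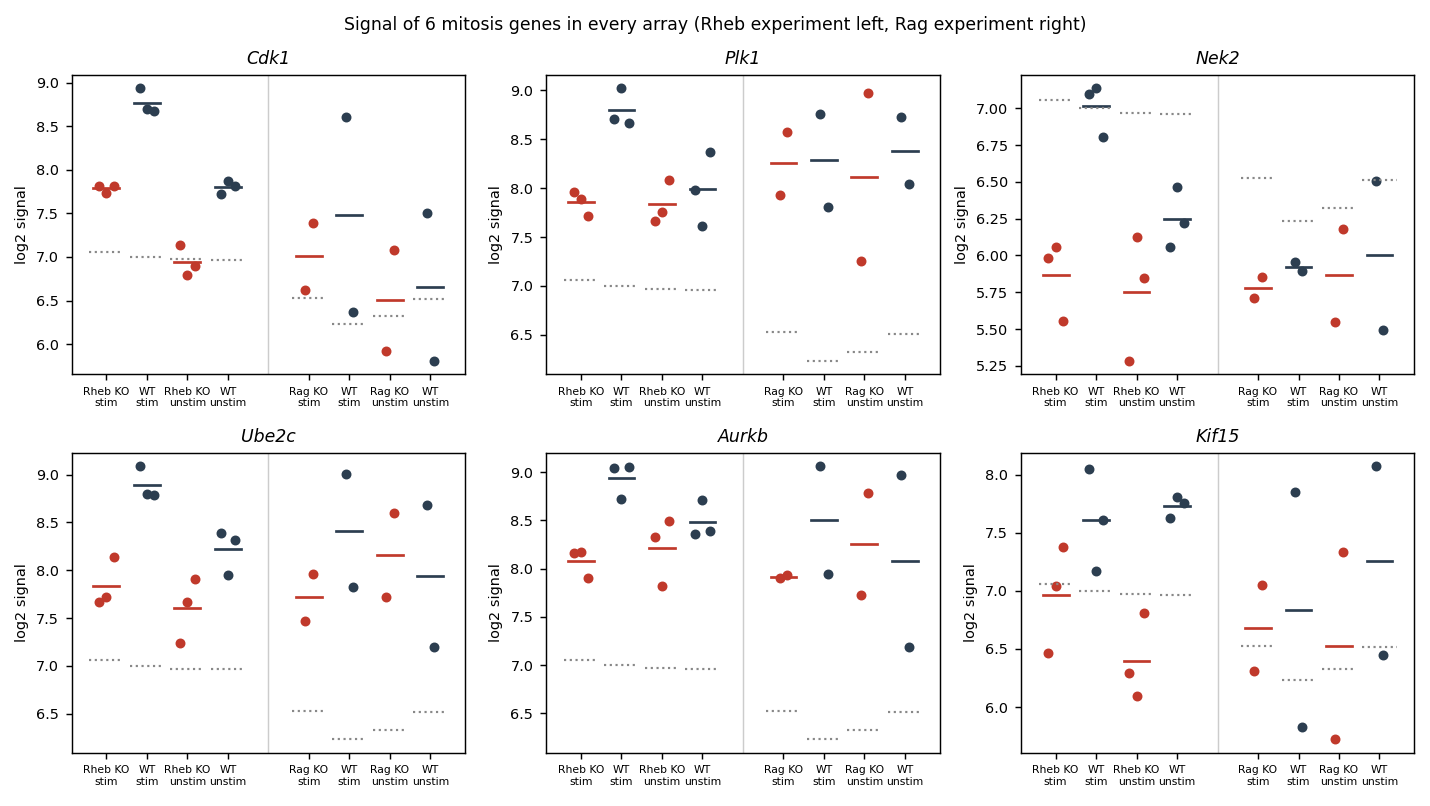
Log2 signal of Cdk1, Plk1, Nek2, Ube2c, Aurkb and Kif15 on every array, with points for arrays, bars for group means and a dotted line for the negative-control level. In the Rheb experiment all 3 stimulated Rheb KO points of Cdk1, Plk1, Nek2, Ube2c and Aurkb lie below the WT points, and in the Rag experiment the 2 arrays of a group often lie farther apart than the group means.

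Ube2c, the ubiquitin-conjugating enzyme of the anaphase-promoting complex, was the called member among 5 genes of the spindle checkpoint and anaphase. It had 7.66, 7.72 and 8.14 in stimulated Rheb KO Tregs, against 9.08, 8.79 and 8.79 in stimulated WT Tregs. Unstimulated it had 7.24, 7.67 and 7.90 in Rheb KO, against 8.39, 7.95 and 8.31 in WT. The groups lay apart in both states, and stimulated Rheb KO arrays overlapped unstimulated WT arrays. The difference was -1.05 ± 0.18 stimulated (adjusted p = 0.0219, 2.07-fold lower) and -0.62 ± 0.18 unstimulated (adjusted p = 0.203).

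The checkpoint kinases Bub1 and Bub1b had stimulated differences of similar size with a wider spread. The means of Ttk, also a checkpoint kinase, lay closer, at 5.96 in stimulated Rheb KO and 6.27 in stimulated WT. Unstimulated, its means were 6.10 in Rheb KO and 6.06 in WT. Bub1 had 6.37, 6.88 and 6.63 in stimulated Rheb KO, against 7.88, 7.86 and 7.56 in stimulated WT. All Rheb KO arrays lay below all WT arrays, and the difference of -1.14 ± 0.31 had an adjusted p of 0.184. Unstimulated WT arrays, which share the estimate of spread, had 6.85, 6.00 and 7.77, and without unstimulated WT array 2 or 3 the adjusted p was 0.0289 or 0.0279. Bub1b, the BubR1 kinase, had a difference of -0.93 stimulated and -0.87 ± 0.51 unstimulated (adjusted p = 0.624), with one Rheb KO array at 4.58 far below the other unstimulated Rheb KO arrays at 6.78 and 6.61. The group's median was -0.93 stimulated and -0.18 unstimulated. Bub1, Bub1b and Ttk of this group exceeded the negative-control median on only 4, 3 and 0 of 20 arrays.

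At the kinetochore, 1 of 6 members was called. Cenpe, a kinesin that carries chromosomes to the spindle equator, had 6.17, 6.12 and 6.17 in stimulated Rheb KO Tregs, against 7.25, 7.02 and 6.75 in stimulated WT Tregs. Unstimulated it had 6.32, 6.33 and 6.27 in Rheb KO, against 6.79, 6.70 and 7.17 in WT. All 6 Rheb KO arrays were below all 6 WT arrays, by -0.85 ± 0.14 stimulated (adjusted p = 0.0163) and -0.58 ± 0.14 unstimulated (adjusted p = 0.103). Its signal exceeded the negative-control median on only 3 arrays. Cenpa, the centromeric histone variant, had differences of -0.12 and -0.13, and the group's median was -0.15 stimulated and -0.32 unstimulated.

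Aurkb, the kinase of the chromosomal passenger complex that corrects faulty chromosome attachment, was called among the complex's 4 members. It had 8.16, 8.17 and 7.90 in stimulated Rheb KO Tregs, against 9.04, 8.72 and 9.06 in stimulated WT Tregs. Unstimulated it had 8.32, 7.82 and 8.49 in Rheb KO, against 8.36, 8.71 and 8.39 in WT. The groups lay apart only after stimulation, when the difference was -0.86 ± 0.17 (adjusted p = 0.0442), and it was -0.27 ± 0.17 without it. Birc5, Cdca8 and Incenp, the complex's other subunits, had stimulated differences of -0.34, -0.37 and -0.18, each with no overlap and none called.

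Of the 11 spindle members, all had a negative difference after stimulation (median -0.42) and none was called. Without stimulation, Kif15, a motor that helps to keep the spindle bipolar, had 6.29, 6.10 and 6.81 in Rheb KO Tregs, against 7.62, 7.81 and 7.76 in WT Tregs. After stimulation it had 6.46, 7.04 and 7.38 in Rheb KO, against 8.05, 7.18 and 7.61 in WT. The unstimulated groups lay apart by -1.33 ± 0.25 (adjusted p = 0.0399) and the stimulated groups overlapped (-0.65). All 3 unstimulated Rheb KO signals lay below their arrays' negative-control medians of 6.86, 6.97 and 7.03, so that Kif15 was not above background there and no fold is given. Kif11, the main motor of spindle bipolarity, had differences of -0.59 stimulated and -0.27 unstimulated, and Tpx2, a spindle assembly factor, -0.51 and -0.37.

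The 6 cytokinesis genes held no call for the knockout (median -0.25 stimulated and -0.26 unstimulated). Kif23, the motor subunit of centralspindlin, had nearly equal means of 8.16 in both stimulated groups, and its partner Racgap1 had a difference of 0.02. Kif20a, a motor that brings the passenger complex to the midzone, had -0.68 stimulated and -0.45 unstimulated. Of the chromosome proteins, Top2a, which untangles DNA before segregation, had 7.95, 8.34 and 8.34 in stimulated Rheb KO, against 8.85, 8.49 and 8.77 in stimulated WT. Unstimulated it had 7.70, 8.15 and 8.25 in Rheb KO, against 8.93, 8.60 and 8.49 in WT. The groups lay apart in both states, with differences of -0.50 ± 0.17 (adjusted p = 0.328) and -0.64 ± 0.17 (adjusted p = 0.156). Mki67, the Ki-67 protein that coats mitotic chromosomes, had 9.42, 9.65 and 9.38 in stimulated Rheb KO, against 10.26, 10.09 and 10.23 in stimulated WT. These groups lay apart (-0.71 ± 0.19, adjusted p = 0.161), and the unstimulated ones (9.25, 9.62 and 9.62 in Rheb KO, against 10.28, 9.42 and 10.10 in WT) overlapped.

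Apart from Cdk1, the Rheb KO calls were near the threshold. Leaving out any single stimulated array, WT 1, 2 or 3 or Rheb KO 1, 2 or 3, left 1 or 2 members called in the stimulated comparison. Calls over all 19505 genes fell as well, from 106 to 25, 34, 37, 28, 25 and 44 in that order. Over the 12 left-out fits, Cenpe and Ube2c kept their calls in 7, Nek2 in 6, Plk1 in 4, and Aurkb and Cdca3 in 3, with the highest adjusted p at 0.196 (Aurkb without stimulated Rheb KO array 3) and differences of -0.54 to -1.25 where calls ended. Cenpe stayed called without stimulated WT array 3 and Ube2c without stimulated Rheb KO array 3. Arrays outside the comparison also ended calls, with adjusted p of 0.0505 to 0.0612: unstimulated WT array 1 or 3 or Rheb KO array 1 for Aurkb, unstimulated Rheb KO array 1, 2 or 3 for Cdca3, and unstimulated WT array 1 or Rheb KO array 2 for Plk1. The Kif15 call ended without unstimulated WT array 1, 2 or 3, unstimulated Rheb KO array 1 or 2, or stimulated Rheb KO array 2, with differences of -1.18 to -1.39 there. When all 20 arrays shared 1 estimate of spread, all 9 calls ended (adjusted p = 0.996 stimulated and 0.935 unstimulated for Cdk1). That estimate takes in the Rag arrays, so it does not measure the spread of the Rheb arrays alone. The SD of Cdk1 within groups was 0.54 to 1.58 in the Rag experiment, against 0.04 to 0.18 in the Rheb experiment.

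Markers of other cell types and of Tregs moved with the Rheb comparisons. Without stimulation, all 10 macrophage and monocyte markers lay above 0, 2 of them called higher, and their mean level was 7.81 to 7.90 in Rheb KO arrays, against 7.43 to 7.47 in WT arrays. Of 11 dendritic cell markers, 10 lay above 0 and 2 were called higher, with mean levels of 7.83 to 7.98 in Rheb KO and 7.50 to 7.69 in WT. Treg markers ran the other way, with 11 of 12 below 0, 4 called lower, and mean levels of 10.47 to 10.66 in Rheb KO against 10.90 to 10.95 in WT. In stimulated arrays, macrophage markers were at 6.82 to 6.83 in Rheb KO and 6.77 to 7.04 in WT, with 4 of 10 above 0 and none called. Stimulated dendritic cell markers were at 7.32 to 7.42 in Rheb KO and 7.10 to 7.35 in WT, with 10 of 11 above 0 and 1 called higher. Treg markers lay lower in stimulated Rheb KO as well, with 11 of 12 below 0 and none called, at mean levels of 11.09 to 11.11 in Rheb KO against 11.26 on each WT array. None of the 5 T cell markers lay above 0 there, and their mean levels were 11.49 to 11.64 in Rheb KO and 11.75 to 11.78 in WT. Of 10 markers of natural killer and CD8 T cells, 7 lay above 0 in each state and none was called. Of the macrophage markers, 2 of 10 exceeded the negative-control median on all 20 arrays (Adgre1 and Fcgr1) and Cd14 on 1. Of the dendritic cell markers, 6 of 11 exceeded it on all 20 arrays, among them H2-Aa and Batf3, and Clec9a on none. The part of these markers' cells in the mitosis gene differences was not tested.

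A few mitosis genes were called higher with stimulation in either genotype of the Rheb experiment. In WT Tregs, Cdk1, Plk1, Ccna2, Nek2 and Ube2c were called higher in stimulated than in unstimulated arrays, and none was called lower. In Rheb KO Tregs, Cdk1, Kif23 and Melk were called higher and none lower. The 3 members in Rheb KO stand beside 4.55% of all genes called higher and 5.19% called lower, and the 5 in WT beside 4.49% called higher and 4.89% called lower. With no overlap between states, 7 members were higher in Rheb KO, beside 13.5% of all genes, and 12 in WT, beside 12.9%. At an unadjusted p under 0.05, 6 were higher in Rheb KO, beside 10.4%, and 15 in WT, beside 11.3%. The Rheb KO counts of 3, 7 and 6 in 44 are thus near the shares of all genes. The median response of the 44 members was 0.06 in Rheb KO, with 28 above 0, and 0.22 in WT, with 37 above 0, against -0.01 and 0.02 over all genes. The Rheb KO median moved to 0.0099 without stimulated Rheb KO array 2, 0.011 without unstimulated Rheb KO array 1 and 0.14 without unstimulated Rheb KO array 3. Each response is taken between arrays that also enter the knockout comparisons, so these results are not independent of one another.

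Cdk1 responded in both genotypes, by 0.84 ± 0.11 in Rheb KO (adjusted p = 0.000257) and 0.97 ± 0.11 in WT (adjusted p = 0.000118), and both calls remained in all 12 left-out fits. The stimulated arrays lay above the unstimulated arrays in each genotype, at the signals given above. Plk1, by contrast, had a response of 0.02 ± 0.18 in Rheb KO and was called in WT, with 0.81 ± 0.18 (adjusted p = 0.0102). Nek2 had responses of 0.11 in Rheb KO and 0.76 ± 0.20 in WT (adjusted p = 0.0286), where unstimulated arrays had 6.06, 6.47 and 6.22. Ube2c had 0.24 in Rheb KO and 0.67 ± 0.18 in WT (adjusted p = 0.0342). Ccna2, the cyclin of S phase and early mitosis, had 0.37 ± 0.19 in Rheb KO and 0.80 ± 0.19 in WT (adjusted p = 0.0161), with unstimulated signals of 8.30, 8.45 and 8.57 in Rheb KO and 8.80, 8.20 and 8.94 in WT. In WT, the Plk1 call remained in all 12 left-out fits. The Ccna2 call ended without unstimulated WT array 2 or stimulated WT array 1 or 3 (adjusted p up to 0.0625), and the Nek2 call without unstimulated WT array 1 or 3 or stimulated WT array 1 or 2 (up to 0.103). The Ube2c call ended without unstimulated WT array 2 or 3 or any stimulated WT array (up to 0.13).

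Kif23 had 8.31, 8.19 and 7.98 in stimulated Rheb KO Tregs, against 6.58, 7.63 and 7.11 in unstimulated Rheb KO Tregs. In WT it had 8.13, 8.19 and 8.14 stimulated, against 7.05, 7.49 and 7.86 unstimulated. Stimulated arrays lay above unstimulated arrays in both genotypes, and the response was 1.05 ± 0.23 in Rheb KO (adjusted p = 0.00992, called in all 12 left-out fits) and 0.69 ± 0.23 in WT (adjusted p = 0.0868). Melk had a response of 0.63 ± 0.18 in Rheb KO (adjusted p = 0.0396), a call kept in 5 of 12 left-out fits and lost without any 1 of the 6 Rheb KO arrays or unstimulated WT array 1 (adjusted p up to 0.151). Unstimulated Melk signals were 5.20, 4.87 and 5.12 in Rheb KO. Top2a and Mki67 had responses of 0.17 and -0.01 in Rheb KO and of 0.03 and 0.26 in WT, with adjusted p between 0.488 and 0.984.

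By role, the median response of the checkpoint and anaphase genes was 0.01 in Rheb KO and 0.58 in WT, that of the passenger complex 0.01 and 0.31, and that of the entry genes 0.04 and 0.22. Spindle genes had 0.11 and 0.22, cytokinesis genes 0.17 and 0.20, and kinetochore genes 0.15 and 0.07. The difference between the responses was tested directly. It was called for none of the 44 members and for 0% of all genes by limma, and 7 members had an unadjusted p under 0.05, all with the smaller response in Rheb KO, beside 3.63% of all genes: Plk1, Nek2, Bub1, Aurkb, Kif2c, Dlgap5 and Ect2. Of these, Kif2c exceeded the negative-control median on 6 of 20 arrays and Ect2 on none. The largest differences were those of Dlgap5, which stabilises kinetochore fibres (-1.02 ± 0.36, adjusted p = 0.713), Bub1 (-0.96 ± 0.44, adjusted p = 0.806) and Plk1 (-0.79 ± 0.25, adjusted p = 0.686). For Cdk1 it was -0.12 ± 0.16 (adjusted p = 0.965). The median was -0.18 over the members and -0.02 over all genes, with 29 of 44 below 0, and it was -0.12 without unstimulated WT array 3. Macrophage markers fell with stimulation, 7 of 10 being called lower in each genotype, and Treg markers rose, 9 of 12 being called in Rheb KO and 7 in WT. Their part in the responses was not tested.

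**Figure D3:**
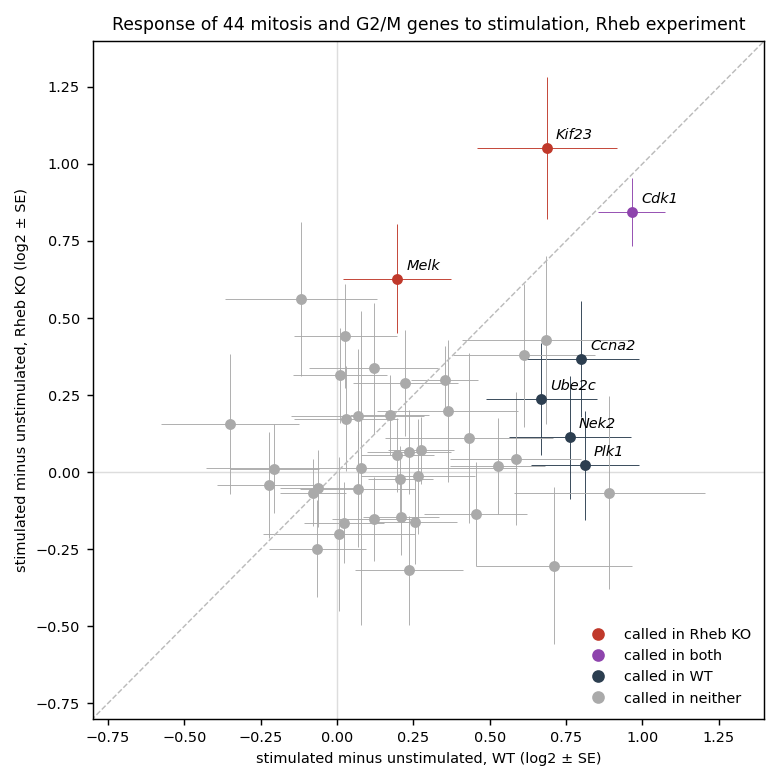
Stimulated minus unstimulated difference (log2) of each of the 44 members in Rheb KO Tregs (vertical) and WT Tregs (horizontal), with bars of 1 SE, colours for the genotype in which a member was called and a dashed line of equal response. Cdk1 lies near the line with 0.84 in Rheb KO and 0.97 in WT, and Plk1 has 0.02 in Rheb KO and 0.81 in WT.

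Genes of the same processes outside the group were described through a list of 103 symbols, of which 98 were measured: regulators of G2/M transcription, cohesion and anaphase genes, other kinetochore proteins, condensin and further spindle genes. In stimulated Rheb KO, 1 was called lower (1.02%, beside 0.338% of all genes): Gtse1, a microtubule-associated protein of G2 and mitosis (-0.61 ± 0.12, adjusted p = 0.0369). Its call ended without any 1 of the 6 stimulated arrays, or without unstimulated WT array 1 or unstimulated Rheb KO array 1 or 3 (adjusted p up to 0.149). Of the 98, 76 lay below 0 after stimulation and 71 without it, beside 10286 and 8960 of all 19505 genes. Their median was -0.13 in both states, and none was called in unstimulated Rheb KO by limma. At an unadjusted p under 0.05 there were 21 after stimulation (21.4%, beside 9.25% of all genes) and 19 without it (19.4%, beside 10.2%). In the Rheb KO response, Gtse1 (0.50), the Cdk subunit gene Cks1b (0.46) and the checkpoint gene Bub3 (0.43) were called higher, and the kinetochore gene Pmf1 (-0.37) lower, in calls kept in 9, 7, 10 and 4 of the 12 left-out fits. In the WT response, 4 were called higher and 3 lower (4.08% and 3.06%), shares below those of all genes (4.49% and 4.89%). The 3 higher and 1 lower in Rheb KO (3.06% and 1.02%) were likewise below the shares of all genes (4.55% and 5.19%). In WT, Gtse1 rose most, by 1.25 ± 0.12 (adjusted p = 2.63e-05), with the phosphatase gene Cdc25a (0.66), Lin54, which encodes the CHR-binding subunit of MuvB (0.38), and Bub3 (0.35). Haspin, a kinase that marks centromeric chromatin (-1.01), the checkpoint gene Mad1l1 (-0.57) and the centrosomal gene Tacc2 (-0.45) fell. The Gtse1 and Haspin calls remained in all 12 left-out fits, that of Cdc25a in 9, those of Mad1l1 and Tacc2 in 8 each, Lin54 in 3 and Bub3 in 2. None of the 98 was called by limma in a knockout comparison or response of the Rag experiment, where 5 in stimulated Rag KO (5.1%), 9 in unstimulated Rag KO (9.18%) and 12 in each response (12.2%) had an unadjusted p under 0.05. Over all genes these shares were 5.07% and 6.66% for the knockouts and 14.4% and 15% for the responses.

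In the Rag experiment no member was called in any comparison, and in 3 of its 4 groups the arrays of a group differed widely from each other. Of the 44 members, 40 were higher in array 2 of unstimulated Rag KO than in array 1, with a median difference of array 1 minus array 2 of -0.53, against -0.18 over all genes. In unstimulated WT, 40 were higher in array 1 than in array 2 (median 0.57, against 0.33 over all genes), and in stimulated WT 39 were (0.46, against -0.04). The 2 stimulated Rag KO arrays differed little (median -0.04, against 0.02). The median SD of a member was 0.15 in stimulated Rag KO, 0.32 in stimulated WT, 0.37 in unstimulated Rag KO and 0.40 in unstimulated WT, against 0.16 to 0.23 in the 4 groups of the Rheb experiment. The labels give no batch for these arrays, and the low 99th percentile of unstimulated Rag KO array 1 and unstimulated WT array 2 goes with the low mitosis signal on both. Its part was not tested, and without these 2 arrays, an alternative chosen after seeing the data, the unstimulated median difference was -0.17. That value sets 1 Rag KO array against 1 WT array. Stimulated WT array 2 was low for these genes without such a low percentile.

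**Figure D4:**
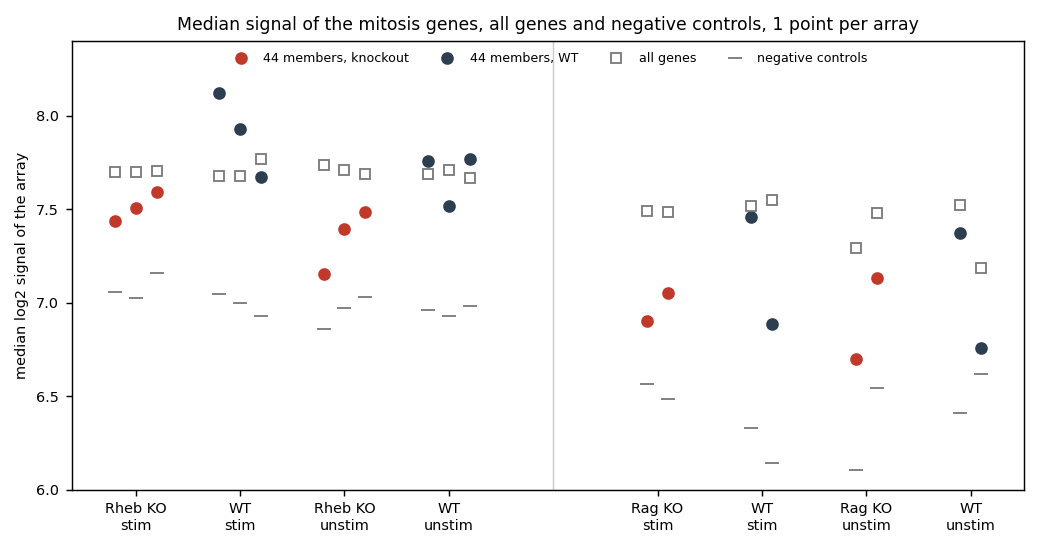
Median log2 signal of the 44 members (points), of all genes (squares) and of the negative controls (dashes) on each of the 20 arrays, by group. Member medians lie between 7.44 and 7.59 in stimulated Rheb KO and between 7.67 and 8.12 in stimulated WT, while the 2 stimulated WT arrays of the Rag experiment lie at 7.46 and 6.89.

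Cdk1 is an example of this spread. It had 6.63 and 7.39 in stimulated Rag KO Tregs, against 8.60 and 6.37 in stimulated WT Tregs. Unstimulated it had 5.92 and 7.08 in Rag KO, against 7.50 and 5.81 in WT. The WT arrays enclosed the Rag KO arrays in both states, and the differences were -0.48 ± 0.65 and -0.15 ± 0.65 (SE, n = 2 each). Plk1 had 7.93 and 8.58 in stimulated Rag KO, against 8.76 and 7.81 in stimulated WT, and 7.25 and 8.97 in unstimulated Rag KO, against 8.73 and 8.04 in unstimulated WT. Its groups overlapped in both states (-0.03 ± 0.48 and -0.27 ± 0.48). Top2a had 7.07 and 7.51 in stimulated Rag KO, against 8.15 and 7.21 in stimulated WT, and its differences were -0.39 ± 0.37 and -0.27 ± 0.37. Mki67 had 8.21 and 8.80 in stimulated Rag KO, against 9.57 and 7.18 in stimulated WT, and differences of 0.13 ± 0.70 and -0.41 ± 0.70.

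The largest differences in stimulated Rag KO were those of Ube2c, Aurkb and Cdc25c. Ube2c had 7.47 and 7.97 in stimulated Rag KO, against 9.00 and 7.82 in stimulated WT, which overlapped (-0.69 ± 0.47, adjusted p = 0.947). Aurkb had 7.91 and 7.93, against 9.06 and 7.95 in stimulated WT, apart by a narrow gap (-0.58 ± 0.51, adjusted p = 0.947). Cdc25c, a phosphatase that activates Cdk1, had 4.99 and 5.38, against 5.69 on both stimulated WT arrays (-0.50 ± 0.23, adjusted p = 0.947), and exceeded the negative-control median on no array. Unstimulated, the largest were Kif15 (5.73 and 7.33 in Rag KO, against 8.07 and 6.45 in WT, -0.73 ± 0.65), Cenpa (8.98 and 9.50 in Rag KO, against 10.13 and 9.58 in WT, -0.62 ± 0.29) and Kif23 (5.06 and 6.40 in Rag KO, against 6.53 and 6.11 in WT, -0.59 ± 0.46). Only Cenpa among these 3 lay apart, and their adjusted p values were 0.881, 0.746 and 0.859.

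Across the 44 members the median difference was -0.16 in stimulated and -0.13 in unstimulated Rag KO, against -0.05 and 0.03 over all genes, with 34 and 36 members below 0. By limma, 0 members were called in either state, beside 0.103% of all genes stimulated and 0.113% unstimulated, and 0 members stimulated and 1 unstimulated (Cenpa) were lower at an unadjusted p under 0.05, beside 1.38% and 4.67%. With no overlap between genotypes, 11 members were lower stimulated, beside 26.2% of all genes, and 3 unstimulated, beside 12.5%. The stimulated share of 11 in 44 is thus near that of all genes. The sign of the median turned with single arrays: it was 0.08 stimulated without stimulated WT array 1, and 0.14 or 0.15 unstimulated without Rag KO array 1 or WT array 1. Without unstimulated WT array 2 or stimulated WT array 2 it was -0.43 or -0.42 in the state of that array.

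Responses to 8 h of stimulation in the Rag experiment were likewise not called for any member, beside 1.32% of all genes called in Rag KO and 1% in WT. At an unadjusted p under 0.05 there were 2 members in Rag KO, Kif23 and Cdc25b, and 0 in WT, beside 14.4% and 15% of all genes. Kif23 had 7.11 and 6.58 in stimulated Rag KO, against 5.06 and 6.40 in unstimulated Rag KO, and 7.40 and 5.98 in stimulated WT, against 6.53 and 6.11 in unstimulated WT. Its response was 1.12 ± 0.46 in Rag KO (adjusted p = 0.267), with no overlap, and 0.37 ± 0.46 in WT, with overlap. Cdc25b, a phosphatase that activates Cdk1 at the start of mitosis, had 7.80 and 7.76 in stimulated Rag KO, against 8.36 and 8.60 in unstimulated Rag KO, and its response was -0.70 ± 0.26 (adjusted p = 0.215). Cenpa had 9.72 and 9.78 in stimulated Rag KO, above both unstimulated Rag KO arrays (0.51 ± 0.29, adjusted p = 0.481). In WT the largest responses were those of Cdk1 (0.83 ± 0.65), Mki67 (-0.75 ± 0.70) and Ube2c (0.47 ± 0.47).

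The median response over all genes was 0.21 in WT of the Rag experiment, a shift that a second quantile normalization reduced to 0.04. Relative to it the members' median was -0.16, and -0.14 after that normalization. In Rag KO the members' median was 0.01, against 0.09 over all genes, and it was -0.28 without unstimulated Rag KO array 1 and 0.27 without array 2. The difference of the responses was called for none of the members and 0% of all genes by limma, with 0 members at an unadjusted p under 0.05, beside 6.16% of all genes. The largest were those of Ube2c (-0.91 ± 0.67), Cenpa (0.78 ± 0.40) and Aurkb (-0.76 ± 0.72), with adjusted p between 0.728 and 0.763. Macrophage markers lay above 0 for 6 of 10 in stimulated and 9 of 10 in unstimulated Rag KO, and dendritic cell markers for 5 of 11 and 10 of 11 (median 0.41 unstimulated), none of them called. Treg markers had 9 of 12 above 0 in stimulated and 9 of 12 below 0 in unstimulated Rag KO (median -0.48), with 1 called lower in each state. Their part in the Rag comparisons was not tested.

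Whether the Rag effect differed from the Rheb effect was tested over all 8 groups in 1 fit, with WT arrays of the same experiment as the base of each effect. None of the 44 members was called in either state by limma, beside 0.19% of all genes stimulated and 0.0564% unstimulated. After stimulation the Rag minus Rheb difference had a median of 0.28, against -0.04 over all genes, and 34 of 44 members were above 0. That median was 0.023 without stimulated Rag WT array 2 and 0.57 without stimulated Rag WT array 1. Nek2 (1.00 ± 0.37, adjusted p = 0.56), Ccnb2 and Cenpe had an unadjusted p under 0.05, all positive, beside 4.26% of all genes with such a p and a positive difference. Bub1b (1.14 ± 0.70, adjusted p = 0.75) and Plk1 (0.91 ± 0.51, adjusted p = 0.732) were the other large ones. Unstimulated, the median was 0.14, against 0.01 over all genes, with 29 above 0, and 1 member (Tpx2) had an unadjusted p under 0.05, beside 7.31% of all genes. The largest were Ube2c (0.84 ± 0.50, adjusted p = 0.764), Cdk1 (0.71 ± 0.65, adjusted p = 0.871) and Bub1b (0.70 ± 0.70, adjusted p = 0.886). The unstimulated median turned negative without unstimulated Rag WT array 2 (-0.16) or unstimulated Rag KO array 2 (-0.08), and Tpx2 was called without unstimulated Rag WT array 1 (1.16 ± 0.25, adjusted p = 0.036). The median SE of a member was 0.33 in this fit, 0.30 for a Rag and 0.17 for a Rheb knockout effect.

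All 4 knockout comparisons set side by side, 19 of 44 members (43.2%) were below 0 in each, against 8.71% of all genes. Within the Rheb experiment 32 (72.7%) were below 0 in both states, against 27.3% of all genes, and within the Rag experiment 27 (61.4%), against 22.4%. Members of this group vary together from array to array, as the Rag pairs show, so these counts do not amount to separate observations. Members with and without a CHR in the promoter window had like medians in stimulated Rheb KO (-0.40 over 30 members and -0.34 over 7) and in unstimulated Rheb KO (-0.30 and -0.31). Members with a CCAAT box had a median of -0.46 in stimulated Rheb KO, over 28 members, and those without one -0.14, over 9. The medians with and without one were closer elsewhere: -0.34 and -0.28 in unstimulated Rheb KO, and -0.15 and -0.11 in stimulated Rag KO. In unstimulated Rag KO they were -0.16 and -0.06. These medians are given with no test.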

How the data were processed

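The values are log2 gene-level signals deposited by the authors, made by RMA with Affymetrix Expression Console 1.1, per the submitters' processing notes. The sources used here do not say if the experiments were normalized as 1 set. Of 28846 probe sets, 19572 carried 1 gene name and gave 19505 genes. A gene with several probe sets (55 genes) kept the one of highest mean. Group means were fitted on all genes within each experiment (limma 3.58.1, R 4.3.3). Tests are two-sided, and errors are SE unless SD is named. The median estimate of known changes was checked on simulated arrays with independent noise per gene. That check did not bear on the share of changes that would be called. Precision is limited by having 3 or 2 arrays in a group.

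The members, roles and other lists were chosen with earlier results of these data known. The text names every called member, plus Cdk1, Plk1, Aurkb, Top2a and Mki67, and the 3 largest uncalled changes where fewer than 3 were called. Other members named as examples were chosen after their values were seen. Motifs were searched on both strands in the first listed promoter of each gene. Alternatives were another quantile normalization, a filter on dim genes, a trended robust prior, other sets of arrays, a replicate block and leaving out single arrays. Leaving out the 2 Rag arrays of lowest 99th percentile was added after seeing the data.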

Additional observations from a re-analysis of the deposited data

How the results depend on the processing

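With all 20 arrays in 1 fit, the count of members called was 0 (against 2) in unstimulated Rheb KO, 0 (against 7) in stimulated Rheb KO, 0 (against 3) in the Rheb KO response, 1 (Ccna2, against 5) in the WT response of the Rheb experiment and 1 (Cdc25b, against 0) in the Rag KO response. In that order, the same fit called 28, 13, 920, 806 and 2146 of all 19505 genes. A second quantile normalization also gave 1 (Cdc25b) in the Rag KO response, beside 382 of all 19505 genes. On leaving out each array in turn, the count lay between 1 and 2 in unstimulated Rheb KO, 1 and 9 in stimulated Rheb KO, 2 and 3 in the Rheb KO response, 2 and 7 in the WT response, 0 and 1 in the Rag KO response (Kif23) and 0 and 1 in the unstimulated Rag minus Rheb difference (Tpx2). The members' median then lay between 0.0099 and 0.14 in the Rheb KO response and between -0.28 and 0.27 in the Rag KO response, -0.43 and 0.15 in unstimulated and -0.42 and 0.08 in stimulated Rag KO. It lay between -0.25 and 0.37 in the WT response of the Rag experiment and between -0.32 and 0.29 in the difference of its responses. For the Rag minus Rheb difference it lay between -0.16 and 0.45 unstimulated and between 0.023 and 0.57 stimulated. Without the 2 Rag arrays of lowest 99th percentile, chosen after seeing the data, it was -0.28 in the Rag KO response and -0.25 in the WT response. Each unstimulated Rag group then held 1 array. Fits that leave out arrays hold fewer of them, while the fit of all 20 arrays takes its spread from both experiments. The cause of the changes was not tested. With the replicate number as a block (replicate block), 2 and 5 members were called in unstimulated and stimulated Rheb KO, 2 and 6 in the Rheb KO and WT responses and 0 in the Rag comparisons. Whether the numbers pair the samples is not known. Deviations of same-numbered arrays correlated by -0.20 to 0.18 in the Rheb and -0.43 to 0.23 in the Rag experiment. With 3 or 2 arrays in a group, such values cannot settle it. The Plk1, Aurkb and Melk calls ended under the block (adjusted p = 0.0715, 0.0819 and 0.0695), that of Aurkb under the second normalization (0.0525), and those of Cdca3 and Ccna2 with only the 2 groups compared (0.0635 and 0.052). Nek2, Cenpe and Melk fall out when the 40% of genes of lowest signal are removed. No change of sign occurred for a called member. Signals near the negative controls limit what can be said of Nek2, Cenpe, Bub1, Bub1b, Kif2c, Ect2, Kif15, Melk and unstimulated Cdk1, among others. In 150-base promoter windows, 73.7% of members and 8.68% of all promoters held a CHR.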
